A study of Homo sapiens with 4 samples.

Results

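The HOX cluster genes are the 39 protein-coding RefSeq genes of GRCh38.p14 (the assembly also called hg38) named HOXA, HOXB, HOXC or HOXD with a paralog number. Membership was set by symbol, from 19974 protein-coding genes on chromosomes 1 to 22 and X, with earlier results of these data known. The members are 11 in HOXA on chromosome 7, 10 in HOXB on chromosome 17, 9 in HOXC on chromosome 12 and 9 in HOXD on chromosome 2. The study profiled NB4, a human cell line from acute promyelocytic leukemia that carries the PML and RARA fusion, by CUT&Tag, in which an antibody brings a transposase to the chromatin it binds. The 4 libraries comprise 1 with an antibody to PPARα, labelled as treatment, 1 with an antibody to PML/RARA, also labelled as treatment, and for each of them 1 IgG library labelled as control. All came from NB4 cells, and the labels name no other agent, dose or time. The measurements are 1 peak list per antibody, without replicates, with 9829 PPARα and 46021 PML/RARA peaks. Read depth is unknown, and absence of a peak means only that the authors' list has none there. Which part of the fusion the PML/RARA antibody recognises is not stated in the labels, and binding by unfused PML or RARA cannot be told apart from it.

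HOX genes encode homeodomain transcription factors that pattern the body axis. They lie in 4 clusters in which position follows paralog number, from the anterior genes at one end to the posterior genes at the other, and retinoic acid, acting through its receptors, is a classical inducer that opens the clusters from their anterior side. In blood cells, HOXA9 and HOXA10 together with the cofactor MEIS1 are known from several forms of acute myeloid leukemia, while acute promyelocytic leukemia is known for low expression of HOXA and HOXB genes. PPARα is a fatty acid-sensing nuclear receptor that pairs with RXR, the same partner that retinoic acid receptors use. No RNA was measured in this series, so peaks alone are described.

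The promoters of HOXA4, HOXA13 and HOXD13 are shown because a PML/RARA peak reached into each, and that of HOXA9 because none did. Each line gives the 250 bases before the annotated start from the RefSeq table of GRCh38.p14, 5′ to 3′ along the gene's strand, with capitals for bases inside a PML/RARA peak. HOXA4 is at chr7:27130758-27131007 (minus strand), HOXA13 at chr7:27200092-27200341 (minus), HOXD13 at chr2:176092471-176092720 (plus) and HOXA9 at chr7:27165538-27165787 (minus).
HOXA4: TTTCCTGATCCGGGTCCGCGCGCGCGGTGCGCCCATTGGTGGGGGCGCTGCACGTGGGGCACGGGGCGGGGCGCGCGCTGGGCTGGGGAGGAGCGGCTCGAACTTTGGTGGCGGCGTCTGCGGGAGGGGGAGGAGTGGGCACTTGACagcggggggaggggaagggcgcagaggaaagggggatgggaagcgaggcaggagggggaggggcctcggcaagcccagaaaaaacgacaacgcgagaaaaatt
HOXA13: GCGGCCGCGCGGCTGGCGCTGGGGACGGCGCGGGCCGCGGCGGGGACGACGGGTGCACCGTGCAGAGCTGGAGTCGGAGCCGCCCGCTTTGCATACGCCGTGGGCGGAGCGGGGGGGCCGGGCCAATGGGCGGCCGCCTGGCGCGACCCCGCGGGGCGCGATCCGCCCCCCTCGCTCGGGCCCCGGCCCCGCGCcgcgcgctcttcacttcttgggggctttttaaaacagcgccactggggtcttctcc
HOXD13: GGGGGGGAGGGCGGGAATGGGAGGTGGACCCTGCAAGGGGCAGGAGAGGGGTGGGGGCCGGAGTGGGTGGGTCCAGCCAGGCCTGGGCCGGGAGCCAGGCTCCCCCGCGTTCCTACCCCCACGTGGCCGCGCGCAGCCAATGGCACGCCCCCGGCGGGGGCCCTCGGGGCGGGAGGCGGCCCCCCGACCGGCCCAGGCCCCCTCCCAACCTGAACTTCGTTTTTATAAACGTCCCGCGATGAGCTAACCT
HOXA9: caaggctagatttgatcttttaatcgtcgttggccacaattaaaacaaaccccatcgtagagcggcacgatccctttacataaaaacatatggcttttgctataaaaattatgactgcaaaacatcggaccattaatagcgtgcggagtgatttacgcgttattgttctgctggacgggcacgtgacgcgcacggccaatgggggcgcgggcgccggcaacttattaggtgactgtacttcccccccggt
In HOXA4 the PML/RARA peak covered 147 of the 250 bases, and the PPARα peak covered the 109 bases next to the start, with 6 bases under both. In HOXA13 the PML/RARA peak covered 194 bases, and in HOXD13 it covered all 250. The counts of CG in these stretches were 26, 40, 21 and 20 in the order shown, so the HOXA9 stretch without a peak had almost as many as that of HOXD13.

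PML/RARA peaks lay at the ends of 11 of the 39 HOX genes (28.2%), where an end counts as marked when a peak shares at least 1 base with the 1 kb on either side of it. Of all protein-coding genes, 57.8% were marked by PML/RARA under the same rule. PPARα peaks lay at the ends of 7 HOX genes (17.9%), beside 32.3% of all protein-coding genes. Peaks of both antibodies lay at 4 HOX genes (10.3%, beside 31.9% of all): HOXA4, HOXA13, HOXB9 and HOXC10. With peaks of −log10 q of at least 5, a measure of how firm the authors' call is, both antibodies marked 1 HOX gene (2.56%, beside 23.7% of all) and PPARα marked 4 (10.3%, beside 23.9%). With peaks of at least 5-fold enrichment over background, the authors' linear fold, both marked 2 (5.13%, beside 27.1%), and with the summit required inside the window PPARα marked 4 (10.3%, beside 31.2%). With 1 library per antibody these are counts and no test was made. With windows of 500 bases the PML/RARA count was 10 (25.6%, beside 54.1%) and the PPARα count 3 (7.69%, beside 30.4%). The PML/RARA count was 11 again with peaks of fold 5 or more (beside 54.1% of all) and with the summit required inside the window (beside 56.7%). It was 3 (7.69%, beside 30.2%) when the list was shortened to its 9819 firmest peaks, the number in the PPARα list. With windows of 5 kb the PML/RARA count was 28 of 39 (71.8%, beside 68.2% of all protein-coding genes), so the position of the HOX genes relative to other genes turned with the window. The PPARα count with windows of 5 kb was 11 of 39 (28.2%, beside 38.6%), and the same 11 is the number with both antibodies (beside 38.2%).

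The 11 genes marked by PML/RARA were spread unevenly over the clusters, with 5 of 11 in HOXA (45.5%), 2 of 10 in HOXB (20%), 3 of 9 in HOXC (33.3%) and 1 of 9 in HOXD (11.1%). PPARα marked 2 of 11, 1 of 10, 4 of 9 and 0 of 9. Each of the PML/RARA shares was under the 57.8% of all protein-coding genes, and the PPARα share of HOXC (44.4%) was above the 32.3%. That HOXC count rested on 2 peaks, because HOXC4, HOXC5 and HOXC6 have the same annotated start and share 1 of them. With windows of 5 kb the PML/RARA shares of HOXA (90.9%) and HOXC (88.9%) were above the 68.2% of all protein-coding genes. Those of HOXB (50%) and HOXD (55.6%) were under it. Members share peaks and overlapping windows, so they are not independent of one another.

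**Figure D1:**
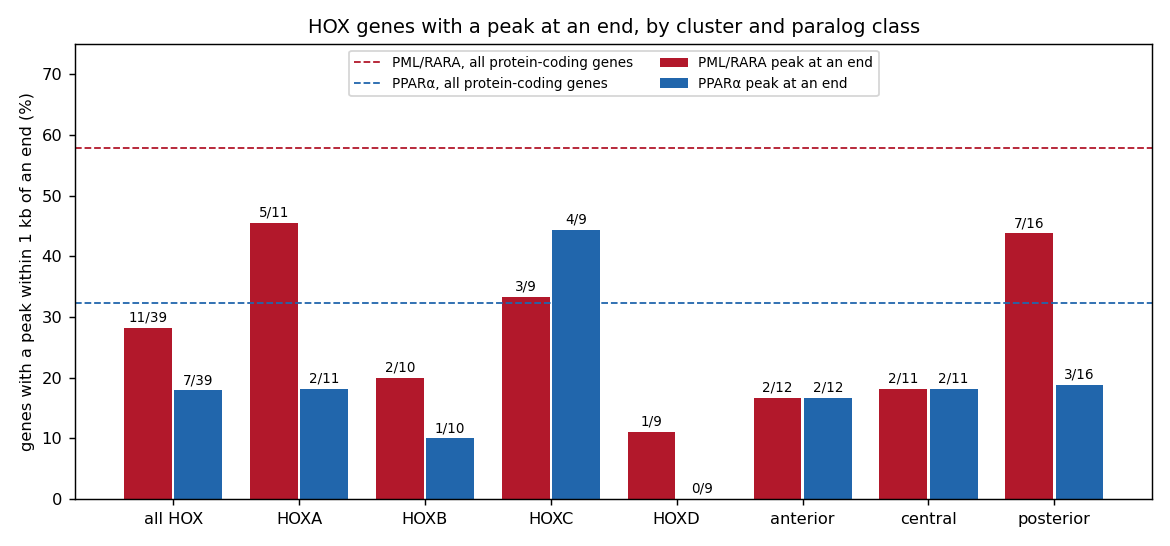
Bars give the share of HOX genes with a peak within 1 kb of either end (y axis, percent), for all members, for each cluster and for each paralog class, with the number of genes above each bar. Dashed lines give the share over all protein-coding genes (57.8% for PML/RARA, 32.3% for PPARα), and every PML/RARA bar lies under its line.

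In HOXA, HOXA4 had PML/RARA peaks of fold 7.03 and 11.5 and a PPARα peak of fold 6.76 between them. Folds of PPARα and PML/RARA were not compared with each other. HOXA9, the HOX gene most often linked to myeloid leukemia, had a PML/RARA peak of fold 6.36 that lay 752 bases beyond its 3′ end, and none at its start. HOXA10 had a PML/RARA peak of fold 7.89 that began 3 bases outside its annotated span, in the read-through gene HOXA10-HOXA9. HOXA13, a gene of distal limb development, had a PML/RARA peak of fold 15.1 and a PPARα peak of fold 5.35, both before its start. HOXA2, HOXA3, HOXA5, HOXA6, HOXA7 and HOXA11 had no end peak in either list.

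In HOXB, 2 genes were marked. HOXB5 had PML/RARA peaks of fold 9.16 and 4.11. HOXB9 had a PML/RARA peak of fold 14.5, with a −log10 q of 68.0, and a PPARα peak of fold 4.51 that shared 362 bases with it. The q-value is the authors' p-value for a peak adjusted over the list, and a higher −log10 q means a firmer call. HOXB1, HOXB2, HOXB3, HOXB4, HOXB6, HOXB7, HOXB8 and HOXB13 had no end peak in either list. Among them, HOXB4 is known for expanding blood stem cells in culture, and HOXB13 is a prostate gene. HOXB13 was the member farthest from a PML/RARA peak, with 23246 bases to the nearest.

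In HOXC, HOXC13, a regulator of hair keratin genes, had a PML/RARA peak of fold 15.7 that stopped 55 bases short of the gene, in HOXC13-AS. HOXC10 had 3 PML/RARA peaks at its lower-coordinate end, with folds of 8.12, 3.87 and 13.4, and a PPARα peak of fold 3.67. With a −log10 q of 1.63, that PPARα peak was among the least firm calls (the minimum of the list was 1.32). HOXC8, a trunk-patterning gene, had a PML/RARA peak of fold 5.79. HOXC4, HOXC5 and HOXC6 were counted for PPARα alone (fold 6.42), a class that held 0.38% of all protein-coding genes. There the window decided the count, since a PML/RARA peak of fold 20.2 overlapped the PPARα peak and missed the window by 10 bases. HOXC9, HOXC11 and HOXC12 had no end peak.

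In HOXD, HOXD11, a gene of forearm and kidney development, was the 1 member with an end peak. It had PML/RARA peaks at both ends, with folds of 3.61 before the start and 6.01 near the finish. With a −log10 q of 1.81, the peak before the start was among the least firm PML/RARA calls (the minimum of the list was 1.3). HOXD1, HOXD3, HOXD4, HOXD8, HOXD9, HOXD10, HOXD12 and HOXD13 had none in either list. HOXD13, a gene of digit formation, nevertheless had a PML/RARA peak of fold 13.8 at an annotated start inside its span. Its RefSeq span begins farther out, at position 176087487, and no peak lay within 1 kb of that end.

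The distance from a gene to its nearest peak shows the same members on a continuous scale. The median distance from the nearer gene end to a PML/RARA peak was 1756 bases over the 39 HOX genes and 184 bases over all protein-coding genes. For PPARα the medians were 15331 and 17726.5 bases, so on this measure the HOX genes had no larger median than other genes. By cluster, the median PML/RARA distance was 1009 bases in HOXC, 1141 in HOXA, 1935 in HOXD and 5691.5 in HOXB. A further 17 genes had their nearest PML/RARA peak between 1 and 5 kb from an end. Among these, HOXC4, HOXC5 and HOXC6 were 10 bases outside the window, HOXA11 was 142 bases outside and HOXA3 was 601 bases outside.

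**Figure D2:**
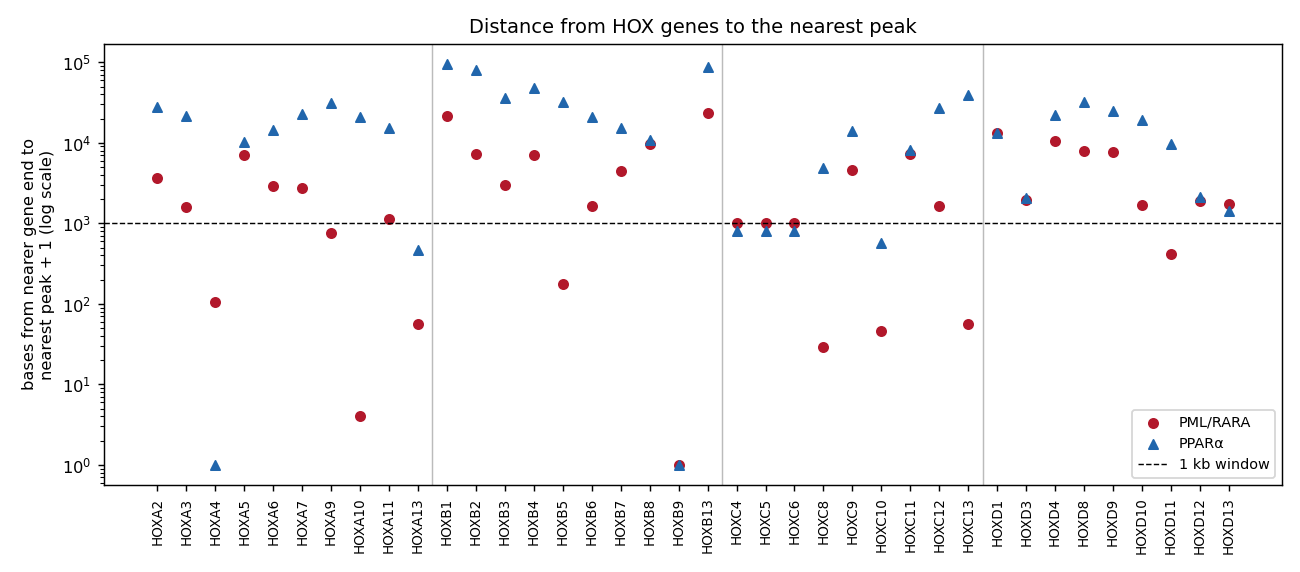
Each point gives the distance from the nearer end of the HOX gene named below it to the nearest PML/RARA peak (circles) or PPARα peak (triangles), in bases plus 1 on a log axis, with genes ordered by cluster and paralog number. Points under the dashed line at 1 kb belong to the marked genes, and HOXC4, HOXC5 and HOXC6 lie just above it for PML/RARA and below it for PPARα.

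Posterior genes were marked by PML/RARA more often than anterior or central ones in these lists. Of paralog groups 9 to 13, 7 of 16 genes had a PML/RARA end peak (43.8%). Of the anterior genes, groups 1 to 4, 2 of 12 did (16.7%), and of the central genes, groups 5 to 8, 2 of 11 did (18.2%). All of these shares were under the 57.8% of all protein-coding genes. By share of marked genes, anterior stood under posterior in each cluster, with 2 of 4 against 3 of 4 in HOXA, 0 of 4 against 1 of 2 in HOXB, 0 of 1 against 2 of 5 in HOXC and 0 of 3 against 1 of 5 in HOXD. The difference is a handful of genes and was not tested. In HOXC and HOXD it rests on anterior classes of 1 and 3 genes, and in HOXB on 2 posterior genes. HOXC4, the 1 anterior gene of HOXC, missed the PML/RARA window by 10 bases, so the order in HOXC hung on the window. PPARα showed no such order, with 2 of 12 anterior, 2 of 11 central and 3 of 16 posterior genes marked. With windows of 5 kb the PML/RARA counts were 7 of 12, 8 of 11 and 13 of 16 (58.3%, 72.7% and 81.2%), beside 68.2% of all protein-coding genes, so the anterior share lay under that value and the others above it. In the list shortened to 9819 peaks, the 3 members with a PML/RARA end peak were posterior: HOXA13, HOXB9 and HOXC10. By median distance to a PML/RARA peak the classes stood at 3365.5 bases (anterior), 2733 (central) and 1401.5 (posterior). Within clusters the order of these medians was not the same throughout. The anterior median was larger in HOXA (851.5 against 404 bases) and HOXD (10635 against 1756), and smaller in HOXB (7105 against 11623) and HOXC (1009 against 1662).

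Across the clusters as regions, the PML/RARA peaks of the full list were more closely spaced than over the genome. The 4 regions, each from the first to the last member with 50 kb on either side, held 47 PML/RARA summits, or 5.06 per 100 kb, beside 1.52 per 100 kb over chromosomes 1 to 22 and X. They held 7 PPARα summits, or 0.754 per 100 kb beside 0.324. By cluster the PPARα rate was 0.966 in HOXA, 0.333 in HOXB, 0.921 in HOXC and 0.983 in HOXD, so HOXB was near the genome value. Between the first and the last member the PML/RARA rate was 6.82 per 100 kb, and in the flanks it was 2.75. Set against other gene-bearing stretches, 14.4% of consecutive windows of the HOXB length that touch a protein-coding gene held at least as many PML/RARA summits as HOXB. The same share was 9.17% for HOXA, 14% for HOXC and 19.4% for HOXD. For PPARα, 23.4% of such windows held at least as many summits as HOXA, 55.6% as HOXB, 24.6% as HOXC and 23.5% as HOXD. Of the 47 PML/RARA peaks, 17 reached the 1 kb around the end of a HOX gene. By summits, 16 of the 47 (34.0%) lay within 1 kb of the end of any protein-coding gene, beside 27.0% of the whole list. With the PML/RARA list shortened to 9819 peaks, the rates per 100 kb were 0.966 in HOXA, 0.333 in HOXB, 1.38 in HOXC and 0 in HOXD. A list of 9819 peaks has 0.324 per 100 kb over chromosomes 1 to 22 and X. In the shortened list HOXB was thus near the genome rate and HOXD under it.

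The regions differed in where the peaks lay. HOXA, which spans 107.1 kb from first to last member, held 10 PML/RARA peaks inside and 4 in its flanks. HOXB spans 200.2 kb and held 9 inside and 5 in its flanks. HOXC spans 117.2 kb with 10 inside and 1 outside, and HOXD spans 103.4 kb with 7 inside and 1 outside. Per 100 kb between first and last member the rates were 9.34, 4.49, 8.53 and 6.77. The HOXB span includes 41.5 kb and 50 kb without a peak on the HOXB13 side. PML/RARA peaks covered 2.06% of the HOXA region, 1.22% of HOXB, 1.98% of HOXC and 1.04% of HOXD, beside 0.482% of the genome.

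**Figure D3:**
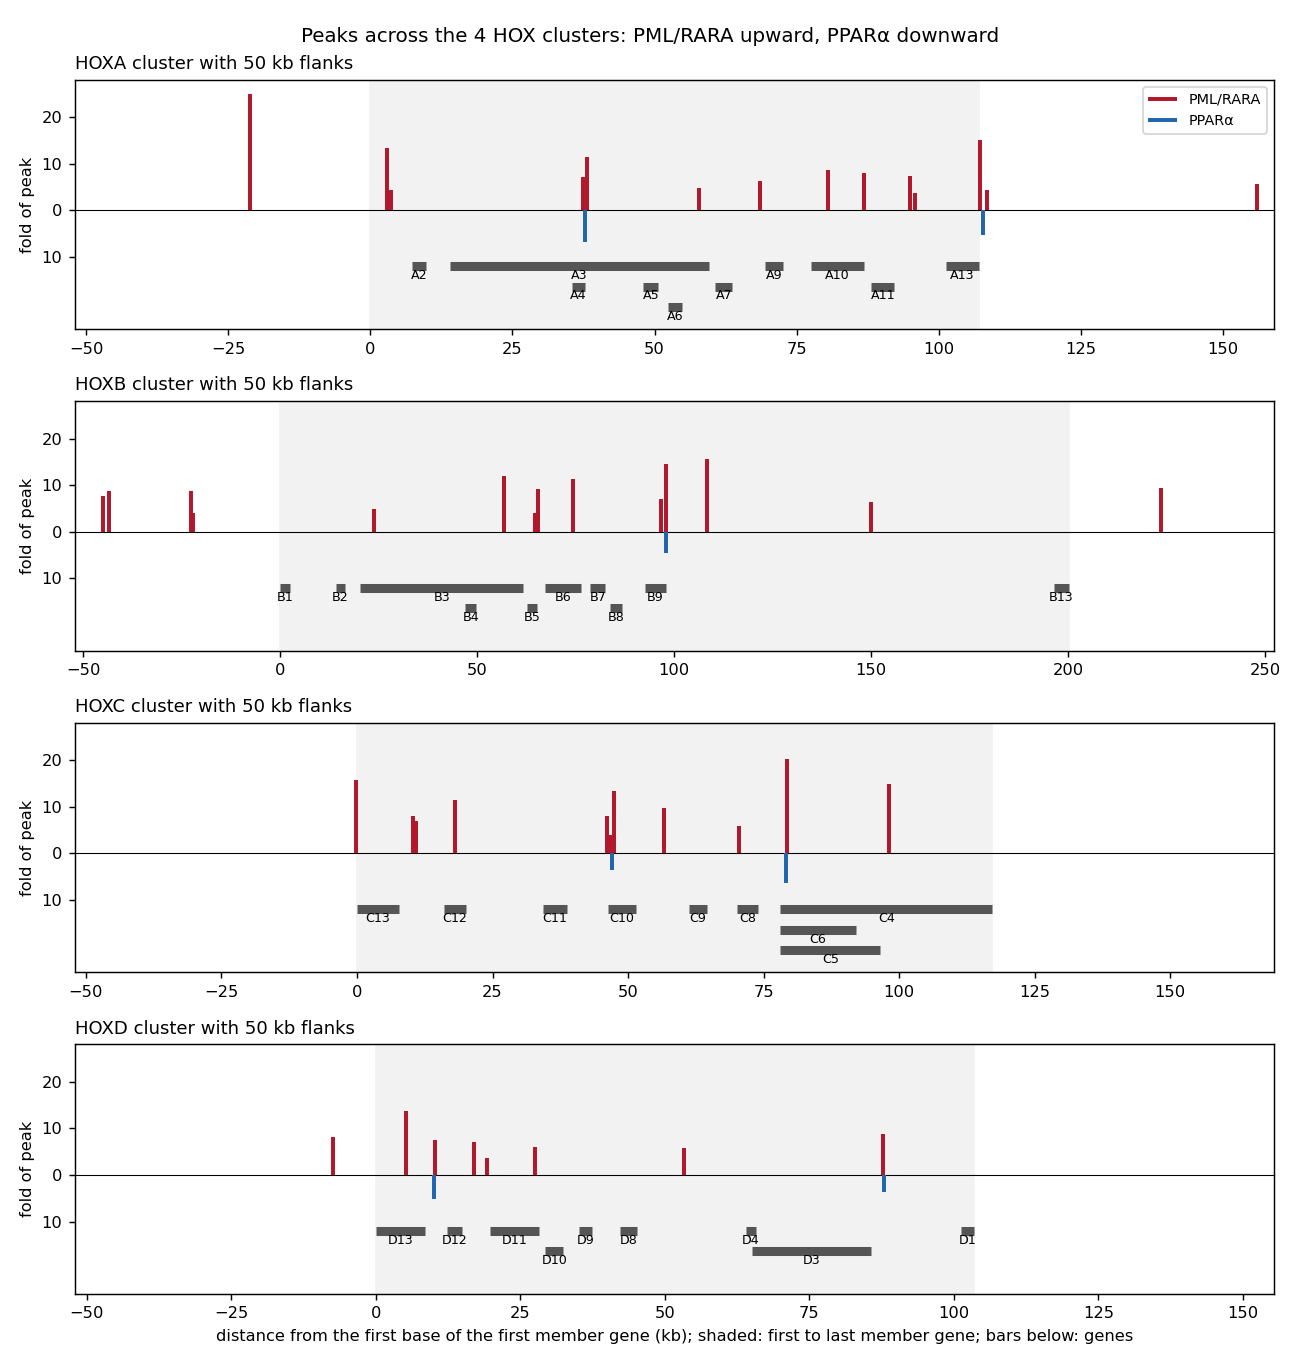
Each panel shows 1 cluster with its flanks, with distance from the first base of the first member on the x axis (kb) and the authors' fold of each peak on the y axis, PML/RARA upward and PPARα downward. Grey bars below are HOX genes by cluster letter and paralog number, and the shaded part runs from the first to the last member. Anterior genes are on the left in HOXA and HOXB and on the right in HOXC and HOXD, and the HOXD peaks crowd toward the posterior side.

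Long stretches of each cluster held no PML/RARA peak. In HOXD, 25.5 kb around HOXD8, HOXD9 and HOXD10 and 34.1 kb around HOXD3 and HOXD4 were empty, as were the last 15.6 kb, with HOXD1. In HOXA the longest gap was 33.5 kb and held HOXA2. In HOXB, 23.8 kb with HOXB1 and HOXB2, 32.8 kb with HOXB4 and 22.2 kb with HOXB7 and HOXB8 were empty. In HOXC the longest gap was 27.6 kb and held HOXC11. Peak-free stretches elsewhere were not measured for comparison. In the full list the regions held 5.06 PML/RARA peaks per 100 kb, beside 1.52 over the genome. In that list these gaps do not make the clusters emptier than the genome.

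The firmest PML/RARA peaks of the regions lay partly outside the genes' ends. In HOXA they included an intergenic peak in the anterior flank (fold 25.0, −log10 q 59.7) and the peak before HOXA13 (15.1, 41.1). In HOXB they were the HOXB9 peak, a peak in the noncoding gene LINC03057, 10227 bases from HOXB9 (fold 15.6, −log10 q 32.0), and a second peak inside HOXB9 (7.07, 20.7). In HOXC they were the peak shared by HOXC4, HOXC5 and HOXC6 (fold 20.2, −log10 q 79.7), the third HOXC10 peak (13.4, 42.0) and a peak inside HOXC4 (14.8, 41.1). In HOXD they were the peak inside HOXD13 (fold 13.8, −log10 q 37.8), a peak in the noncoding gene HAGLR (8.74, 11.5) and one between HOXD13 and HOXD12 (7.42, 10.8). The HOXC peak stood at the 89.5 percentile of the whole list by −log10 q, the highest of the 47. Over the 47 peaks the median fold was 8.11, beside 7.41 for the whole list, and the median −log10 q was 11.5, beside 11.9. By both measures the HOX peaks lay near the middle of the list.

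**Figure D4:**
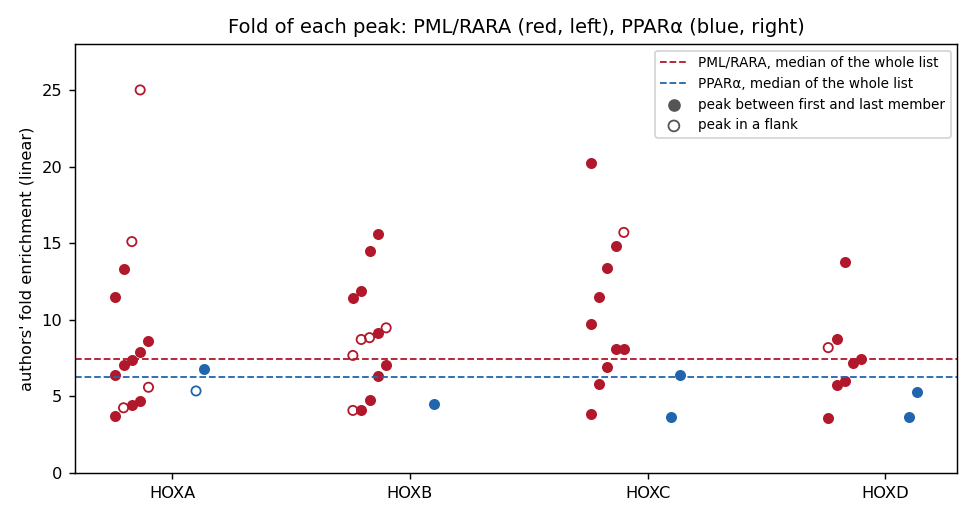
Each point is a peak of a HOX region, with the authors' linear fold on the y axis, PML/RARA in red and PPARα in blue, filled between first and last member and open in a flank. Dashed lines are the medians of the whole lists (7.41 and 6.26), and 5 of the 7 PPARα points lie under theirs.

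The 7 PPARα peaks had a lower median fold than their list, and 3 of them lay beside a PML/RARA peak without touching it. Their folds were 6.76 at HOXA4, 6.42 at HOXC4, HOXC5 and HOXC6, 5.35 at HOXA13, 5.26 between HOXD13 and HOXD12, 4.51 at HOXB9, 3.67 at HOXC10 and 3.67 in HAGLR. The median fold was 5.26 beside 6.26 for all PPARα peaks, and the median −log10 q was 4.59 beside 6.33. Of the 7, 4 overlapped a PML/RARA peak by 1 base or more, beside 90.1% of all PPARα peaks. The other 3 were separated from one by 10 bases between HOXD13 and HOXD12, 40 bases at HOXA13 and 46 bases at HOXC10. Over the whole list, 974 PPARα peaks had no overlap, and 93 of them (9.55%) had a PML/RARA peak within 100 bases. The limit of 100 bases was chosen after seeing the data, so the 3 HOX peaks cannot be weighed against that share.

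At HOXA4 the PPARα peak lay at chr7:27130536-27130866 and touched PML/RARA peaks at both sides, by 19 bases before it and 6 bases after it. At HOXC10 the PPARα peak, at chr12:53985708-53986043, filled the space between PML/RARA peaks 96 bases before and 46 bases after it. Broader overlaps were seen at HOXB9, with 79.6% of the PPARα peak shared, and at HOXC4, HOXC5 and HOXC6, with 72.1% shared and summits 60 bases apart. In HAGLR 32.3% was shared and the summits were 29 bases apart. The median share among overlapping PPARα peaks of the whole list was 76.4%. Less than 10% of the peak was shared by 4 of the 7, beside 11.5% of all PPARα peaks, a limit chosen after these values were seen. The gaps describe the called intervals, whose median widths were 503 bases for PPARα and 241 for PML/RARA over the whole lists, and their part in the gaps was not tested.

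**Figure D5:**
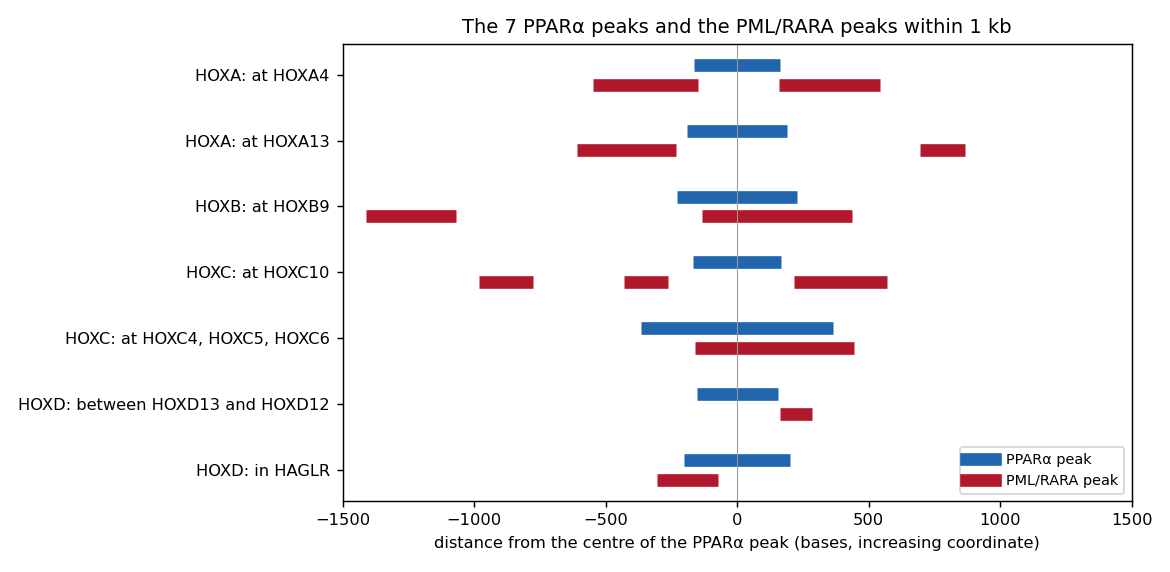
Each row shows 1 of the 7 PPARα peaks (blue), centred at 0, with the PML/RARA peaks within 1 kb of it (red), on an x axis in bases. In the rows for HOXA4, HOXA13, HOXC10 and the space between HOXD13 and HOXD12 the nearest red bar stops within 100 bases of the blue bar or overlaps it by at most 19 bases, and in the other 3 rows the overlap is broader.

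Seen from the PML/RARA side, 5 of the 47 peaks (10.6%) overlapped a PPARα peak, beside 21.4% of all PML/RARA peaks. None of the 3 HOXC10 peaks was among the 5.

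Annotated starts were counted where the promoter table gave them. The promoter table held 27 starts of 20 HOX genes, and a PML/RARA peak lay within 1 kb of a start at 6 of the 20 (30.0%), beside 59.7% of protein-coding genes with a tabulated start. These were HOXA3, HOXA4, HOXA10, HOXA13, HOXD11 and HOXD13, with HOXD11 counted through its peak of −log10 q 1.81 alone. Within the 300 bases from 250 before to 50 after a start, PML/RARA peaks lay at 5 of the 20 (25.0%, beside 55.5%), which left out HOXD11. PPARα reached that stretch at HOXA4 alone (5.0%, beside 32.0%), and within 1 kb of a start PPARα lay at 4 of the 20 (20%, beside 35.1%). At HOXA3 the PML/RARA peak was of fold 4.72, at 1 of its 7 tabulated starts. Of HOXB the table held HOXB1 alone, and of HOXC it held HOXC4 and HOXC5, which share a start. The genes HOXB5, HOXB9, HOXC8, HOXC10 and HOXC13, marked at an end by PML/RARA, could therefore not be counted here.

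Direct repeats of the nuclear receptor element were rare over all promoters searched, and the HOX promoters held none. The search took pairs of elements, each AGGTCA or else AGTTCA or else GGGTCA or else GGTTCA, on either strand with 1, 2 or 5 bases between them, without mismatch, in the 300 bases of each tabulated start. None of the 27 HOX promoters held one, and 91 of the 34961 promoters in the table did (0.26%). At that share a set of 27 would seldom hold one, so the absence cannot set HOX promoters apart. A lone element of these 4 spellings was in 11 of the 27 (40.7%), beside 38.6% of all promoters. The 27 include 7 starts of HOXA3, and HOXC4 and HOXC5 share the same stretch, which is counted for each. Nearly all are of HOXA and HOXD. GAGGAA, the core of PU.1-type ETS sites, was in 4 of the 27 on either strand (14.8%, beside 27.9%), with 1 match in HOXA4, inside the stretch printed above. Matches are descriptions of these letters and not of binding. The median count of CG per promoter was 22 in HOX genes and 21 in protein-coding genes. The 5 HOX promoters with a PML/RARA peak had a median of 27 and those without one 17, beside 28 and 9 over the promoters of protein-coding genes. HOX promoters without a PML/RARA peak ranged widely in CG. The highest counts were at HOXD1 (36), HOXD8 (34) and HOXA7 (31), and the lowest at a start of HOXA3 (0) and at HOXD4 (4).

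The noncoding genes of the clusters had shares near those of such genes elsewhere. PML/RARA peaks lay at the ends of 6 of 24 listed noncoding RNA genes (25.0%), beside 21.7% of all lncRNA and miRNA genes, and PPARα peaks at 2 of 24 (8.33%, beside 9.62%). HOTTIP, a lncRNA known to act on posterior HOXA genes, shared the PML/RARA and PPARα peaks of HOXA13. HOXC-AS3 shared those of HOXC10, and HOXC13-AS that of HOXC13. HOXC-AS2 (fold 9.74) and HOXA11-AS (3.70) had PML/RARA peaks away from the coding genes' ends. HOTAIR, which lies in HOXC, and the 6 listed miRNA genes, of the MIR10, MIR196 and MIR615 families, had no peak at an end. Where a noncoding gene and a HOX gene start side by side, a peak cannot be assigned to either.

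Genes that encode partners and regulators of HOX proteins had larger shares with peaks than the HOX genes. Of 27 listed regulators of HOX chromatin and transcription, PML/RARA marked 24 (88.9%, beside 57.8%) and PPARα marked 18 (66.7%, beside 32.3%). They included KMT2A, whose product maintains HOX expression and is rearranged in leukemia (PML/RARA fold 14.4, PPARα fold 7.95), its partner gene MEN1 (23.4, 5.31), and the fusion partner genes NUP98 (32.0, 10.9), MLLT10 (26.1, 4.88) and AFF1 (23.4, 6.01). NPM1, often mutated in leukemia with high HOX expression, had folds of 27.1 and 7.44, and CTCF, the insulator protein gene, had 22.1 and 7.21. DOT1L, a histone methyltransferase gene, had a PML/RARA peak of fold 13.7 at an end and no PPARα peak there. CBX8 (17.9, 6.08), KDM6B (11.7, 6.17) and ASXL1 (26.6, 8.38) had peaks of both antibodies, with firmer PML/RARA peaks than KMT2A. PCGF2, CDX1 and CDX4 had no end peak. Of 9 cofactor genes, PML/RARA marked 7 (77.8%, beside 57.8%) and PPARα 2 (22.2%, beside 32.3%), PBX4 and PKNOX1. The PPARα share of the cofactors was thus under that of all protein-coding genes. PBX3 (21.3) and PBX2 (18.9) had PML/RARA peaks alone, and MEIS1, the leukemia cofactor, had none at its ends and 1 peak of each antibody inside. These lists were not tested against other genes.

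Homeobox genes outside the clusters also had shares under those of all protein-coding genes. Of 80 genes of other homeobox families, PML/RARA marked 19 (23.8%, beside 57.8%) and PPARα 6 (7.5%, beside 32.3%). All 6 were also marked by PML/RARA, and PPARα alone was rare over all protein-coding genes too (0.38%). Those 6 were CDX2, IRX3, DLX2, DLX4, SIX5 and MSX1, with PPARα folds from 4.61 at MSX1 to 8.37 at IRX3. CDX2, an upstream regulator of HOX genes, is also in the list of regulators. EVX1 and EVX2, the homeobox neighbours at the posterior ends of HOXA and HOXD, had no end peak, and EVX2 had a PML/RARA peak of fold 8.18 inside. Among the other protein-coding genes that reach into the regions, PRAC1 and PRAC2 had none, and TTLL6 had peaks of both antibodies (24.4, 6.36), which lay outside the region.

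As a check of the cell type, PML/RARA peaks lay at the ends of 7 of 10 myeloid marker genes, 4 of 7 lymphoid and 0 of 5 erythroid ones, and PPARα peaks at 1, 1 and 0. Over all protein-coding genes the shares were 57.8% and 32.3%, beside 70.0% and 10% of the myeloid and 57.1% and 14.3% of the lymphoid genes. The myeloid genes without an end peak were ELANE, CTSG and CD33. A peak does not show that a gene is expressed, so these counts do not test the label.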

How the data were processed

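CUT&Tag peaks of 1 PPARα and 1 PML/RARA library from NB4 cells were used, and the 2 IgG libraries entered no count. Coordinates are on hg38, and Bowtie2 2.2.9, SAMtools, MACS 1.4.2 and bedtools are named without roles or settings, per the submitters' processing notes. The lists have the narrowPeak layout, which later MACS releases write, so the caller's version is uncertain and fold and q are read by that layout's column order. The notes do not say how IgG, duplicates or masked regions were treated. The deposited lists give each peak a position, a summit, a linear fold enrichment (a ratio), p- and q-values as −log10, and an integer score equal to about 10 times the −log10 q, which was not used. Both measures come from the authors' peak caller and were read within 1 list at a time.

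The analysis kept chromosomes 1 to 22 and X, so 33 PML/RARA and 10 PPARα peaks elsewhere were dropped. Gene positions and promoters came from RefSeq tables of GRCh38.p14. No genome sequence was used here, so sequences of peaks, exons and introns were not read. Overlaps were computed with Python 3.11.15, pandas 2.3.3 and numpy 2.4.6, and checked first on simulated data. Several peaks at a gene are represented by the highest −log10 q. Named were the members, every PPARα peak and up to 3 of the firmest PML/RARA peaks per region, flanking genes with an end peak, and up to 10 genes per list with one. Among the regulators KMT2A was named besides these. The members and lists were chosen with earlier results of these data known. With 1 library per antibody no test was made and no p-value is given. The alternatives were other windows, stricter or shorter lists, start sites, other flanks and other overlap rules. The totals include 1 member that is not reported here by itself.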

Additional observations from a re-analysis of the deposited data

How the results depend on the processing

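No paired analysis was possible because each antibody has 1 library and the labels carry no replicate numbers. Of 115 alternatives over 23 results, 70 gave a value within 1.5 times the reported one and 45 did not. A total of 12 alternatives were chosen after seeing the data. Where values moved, the cause was not tested beyond what the setting itself changes (more or fewer peaks or bases counted).

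With windows of 5 kb, PML/RARA marked 28 of 39 members, beside 68.2% of all protein-coding genes. By cluster it marked 10 of 11 in HOXA (90.9%), 5 of 10 in HOXB (50%), 8 of 9 in HOXC (88.9%) and 5 of 9 in HOXD (55.6%). By class it marked 7 anterior, 8 central and 13 posterior genes. PPARα marked 11 (beside 38.6% of all) and both marked 11 (beside 38.2%). With windows of 500 bases PPARα marked 3. With the PML/RARA list shortened to 9819 peaks, PML/RARA marked 3 (1, 1, 1 and 0 by cluster, and 0 anterior, 0 central and 3 posterior). The rates per 100 kb by cluster were then 0.966, 0.333, 1.38 and 0, beside 0.324 for 9819 peaks over the genome. With −log10 q of at least 5, PPARα marked 4 and both antibodies 1, and PPARα rates per 100 kb were 0.483 in HOXA, 0 in HOXB, 0.46 in HOXC and 0 in HOXD. With fold of at least 5, both antibodies marked 2, and PPARα rates were 0 in HOXB, 0.46 in HOXC and 0.492 in HOXD. With summits inside the window PPARα marked 4. With groups 1 to 3 as anterior, 1 of 8 anterior genes was marked by PML/RARA.

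Without flanks the PML/RARA rate was 8.53 in HOXC and 6.77 in HOXD, and the PPARα rate 1.71 and 1.93. With flanks of 100 kb the PPARα rate in HOXB was 0.5. PML/RARA peaks that overlapped PPARα numbered 3 when at least 50% of the shorter peak had to be shared, 2 with summits within 200 bases and 3 of 38 with −log10 q of at least 5 in both lists. PPARα peaks that overlapped PML/RARA numbered 2 with summits within 200 bases and 7 when a gap of at most 100 bases was allowed. Under −log10 q or fold of at least 5 and under the summit rule the PML/RARA count stayed at 11, and with windows of 500 bases it was 10. Depth is unknown for both lists, so whether more reads would add peaks at unmarked HOX genes cannot be told.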
